A study of Mus musculus with 28 samples.

Results

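Neutrophil genes were examined in liver RNA of wild type (WT) mice and of mice overexpressing SIRT6 (SIRT6-tg). The group holds 10 genes, *S100a8*, *S100a9*, *Retnlg*, *Csf3r*, *Ly6g*, *Mmp8*, *Mmp9*, *Ngp*, *Camp*, and *Ltf*, found by symbol among the 49585 features of the count table. Each library came from the liver of 1 mouse of strain C57BL/6JOlaHsd, aged 5 to 7 months according to the labels. Each sex had 7 mice of either genotype, which gives 4 groups of 7 libraries. The transgenic animals carry a *Sirt6* transgene, are all of 1 line that was made on a hybrid background and backcrossed, and were compared with WT littermates kept in the same cages. The promoter of the transgene is not given in the sources used here. Mice of all groups were on standard chow and had been fasted for a few hours. RNA was taken from frozen liver, so it holds the RNA of every cell present, blood cells in the vessels included. Of the 9 genes that could be tested, *Csf3r* alone was called different between genotypes, lower in male SIRT6-tg livers. In males 11% of all 21583 tested genes were called lower. None of the 9 was called in females, where 0.0278% of all tested genes were called.

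SIRT6 is an NAD+-dependent deacylase of the nucleus. Neutrophils are the short-lived granulocytes that reach infected or injured tissue first. They mature in the bone marrow under granulocyte colony-stimulating factor and fill their granules in a fixed order, so that genes for granule proteins are transcribed mainly in marrow precursors and are largely silent in the circulating cell. Mature neutrophils go on transcribing genes such as *S100a8*, *S100a9*, *Csf3r*, and *Retnlg*. In the healthy liver they are found mostly within the sinusoids. The 10 genes therefore cover the alarmin subunits of the cytosol (*S100a8*, *S100a9*), the receptor that receives the growth signal (*Csf3r*), a secreted protein (*Retnlg*), a surface antigen (*Ly6g*), metalloproteases (*Mmp8*, *Mmp9*), and proteins of the specific granules (*Ngp*, *Camp*, *Ltf*).

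Sequences upstream of 4 of these genes are shown because they stand for the roles that the values below turn on, the growth factor receptor, the alarmin pair, and a granule protein. They are RefSeq sequences of build GRCm38.p6, read 5′ to 3′ on the strand of the gene, and they end before the start of the gene in both RefSeq and Gencode. *Csf3r* is taken from chr4:126024409-126024549 on the plus strand, *S100a8* from chr3:90668821-90668977 on the plus strand, *S100a9* from chr3:90695722-90695971 on the minus strand, and *Ngp* from chr9:110419558-110419746 on the plus strand. Capitals mark matches on either strand to TTGCNNAA, a pattern bound by C/EBP factors, or to GAGGAA, a pattern bound by PU.1. C/EBP factors and PU.1 are transcription factors of the granulocyte lineage.
Csf3r: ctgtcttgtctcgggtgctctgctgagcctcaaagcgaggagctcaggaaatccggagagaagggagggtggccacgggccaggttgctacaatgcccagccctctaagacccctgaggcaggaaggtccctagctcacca
S100a8: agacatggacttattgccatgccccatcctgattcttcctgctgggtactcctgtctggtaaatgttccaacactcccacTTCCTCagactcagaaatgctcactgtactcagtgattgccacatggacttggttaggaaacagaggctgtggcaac
S100a9: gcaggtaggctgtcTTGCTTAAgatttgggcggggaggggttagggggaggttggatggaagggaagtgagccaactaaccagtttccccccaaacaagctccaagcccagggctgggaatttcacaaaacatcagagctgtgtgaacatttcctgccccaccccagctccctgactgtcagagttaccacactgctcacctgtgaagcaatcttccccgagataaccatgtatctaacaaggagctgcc
Ngp: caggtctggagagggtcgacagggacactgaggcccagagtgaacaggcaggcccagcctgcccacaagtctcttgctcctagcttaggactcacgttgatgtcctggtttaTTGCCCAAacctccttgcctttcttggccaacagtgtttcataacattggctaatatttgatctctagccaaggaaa

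Of the 10 genes, 9 had an entry in the promoter table, and *Mmp9* had none. In the 250 bases before the RefSeq start, TTGCNNAA was present on either strand in 6 of these 9 genes, against 9.55% of 27025 promoters of the same length. The 6 genes were *S100a9*, *Retnlg*, *Ly6g*, *Mmp8*, *Ngp*, and *Ltf*, and *Ngp* held 2 matches, of which the one nearer to the start lies in the stretch left out above. GAGGAA was present in 5 of 9 (*S100a8*, *Csf3r*, *Ly6g*, *Mmp8*, and *Ltf*), against 23.1% of all promoters. The *Csf3r* match lies 86 to 81 bases before the RefSeq start, within the Gencode gene, and is therefore not printed. *S100a8* held 2 matches, of which the one 36 to 31 bases before the RefSeq start is not printed either. The longer form GAGGAAG was found in 4 of 9 against 10.4%. TATAAA was found in 2 of 9 against 13%, and CCAAT in 4 of 9 against 34.5%. The wider pattern TTNNGNAA was found in 7 of 9 against 36.9%. It takes in every TTGCNNAA match read on the other strand, and of the 7 genes *S100a8* alone had no TTGCNNAA match. The palindrome TTGCGCAA was found in none of the 9 and in 0.17% of all promoters. These 7 patterns were chosen after the sequences had been seen, so the shares are a description.

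The total count per library ranged from 18758863 to 35393069, with no group set apart by depth. *Sirt6* itself read between 1.69 and 3.24 counts per 1e6 reads (CPM) in male WT livers and between 198 and 358 CPM in male SIRT6-tg livers. In females it read between 1.81 and 6.22 CPM in WT and between 16.4 and 50.2 CPM in SIRT6-tg livers, so every library matched its genotype label. The SIRT6-tg ranges of the sexes did not overlap. A difference between the sexes in the SIRT6-tg effect therefore cannot be told apart from one of *Sirt6* level. CPM values here are scaled by TMM, which sets each library against the bulk of genes that change least. Differences were tested with edgeR's quasi-likelihood F-test on the counts of all 28 libraries, over the 21583 genes whose mean normalized count reached 0.5. A gene was called when its p-value adjusted by Benjamini-Hochberg over all these genes was under 0.05. *Ly6g* did not reach the minimum, and the other 9 members were tested.

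The neutrophil transcripts were scarce in these livers, and their order was steep. Per kilobase of exon, the mean over the 28 libraries was 5.42 CPM for *S100a9*, 3.27 for *S100a8*, 0.969 for *Csf3r*, 0.804 for *Retnlg*, and 0.351 for *Mmp9*. On the same scale it was 0.108 for *Camp*, 0.102 for *Ngp*, 0.0734 for *Mmp8*, 0.0300 for *Ltf*, and 0.0121 for *Ly6g*. *S100a9* stood above *S100a8*, and *S100a8* above *Csf3r*, in 28 of 28 libraries. The next neighbours were not cleanly ordered, since *Csf3r* exceeded *Retnlg* in 20 and *Retnlg* exceeded *Mmp9* in 23 of the 28, and *Camp*, *Ngp*, *Mmp8*, *Ltf*, and *Ly6g* each had libraries with no count at all.

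**Figure D1:**
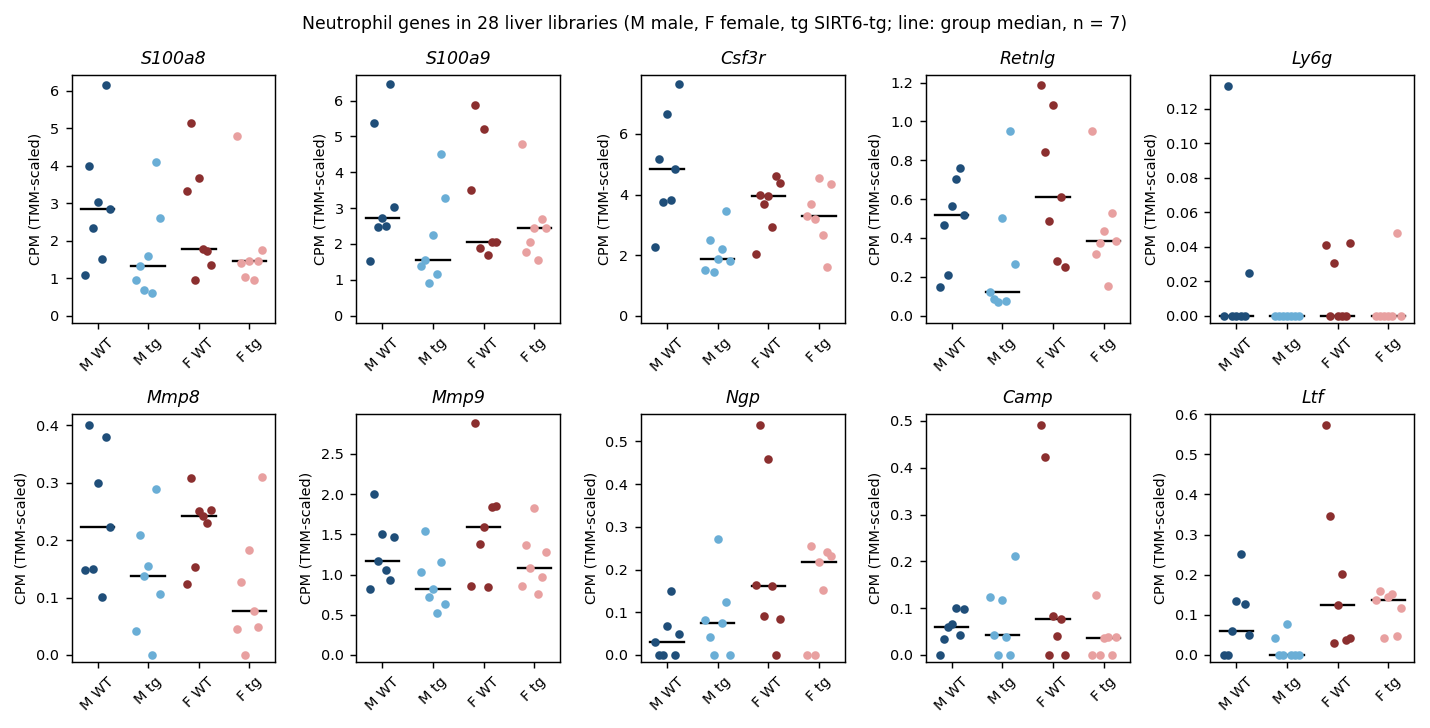
Each panel gives 1 gene, with the level in CPM (TMM-scaled, linear axis from 0) of every library on the vertical axis and the 4 groups on the horizontal axis (M male, F female, tg SIRT6-tg, 7 libraries each, the line marking the group median). In *Csf3r* 6 of 7 male WT points lie above all male SIRT6-tg points, while *Ly6g*, *Ngp*, *Camp*, and *Ltf* sit at or near 0 in most libraries.

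*Csf3r* encodes the receptor for granulocyte colony-stimulating factor and is carried by neutrophils and, at lower levels, by monocytes. The gene (ENSMUSG00000028859.14) lies on chromosome 4 from 126024550 to 126044440 of GRCm38. In male WT livers its lowest, median, and highest levels were 2.27, 4.85, and 7.65 CPM. In male SIRT6-tg livers they were 1.45, 1.86, and 3.47 CPM. The groups overlapped through a single WT library, replicate 1 at 2.27 CPM, which lay among the SIRT6-tg values. All other male WT livers were above every male SIRT6-tg liver, and 5 of the 7 SIRT6-tg livers were below every WT liver. The log2 fold change was −1.21 (SE 0.24, 95% interval −1.70 to −0.72), a level 2.31-fold lower in SIRT6-tg males (edgeR adjusted p = 0.000433). In a bulk sample, fewer cells carrying a transcript and less of it per cell cannot be told apart, which holds for every difference given here.

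In females *Csf3r* read 2.04, 3.97, and 4.60 CPM (lowest, median, and highest) in WT and 1.59, 3.30, and 4.55 CPM in SIRT6-tg livers. These ranges overlapped almost entirely. The log2 fold change was −0.13 (SE 0.24, 95% interval −0.61 to 0.35) and was not called. The male effect minus the female effect was −1.08 (SE 0.34, 95% interval −1.77 to −0.39). Over all genes this difference fell just short of the threshold (edgeR adjusted p = 0.0585), and in 7 of 9 other settings of the analysis it passed, with adjusted p from 0.0120 to 0.0741 over the 9. It also passed when any of 6 single libraries was left out, namely male WT replicates 1, 3, or 5 or replicate 6 of any other group, with adjusted p from 0.0147 to 0.107 over all 28 omissions. *Csf3* itself, the gene of the ligand, had 1 count in the 28 libraries together, in a female SIRT6-tg liver, so no ligand transcript was measurable at this depth.

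*S100a8* and *S100a9* encode the subunits of calprotectin, a calcium- and zinc-binding alarmin that makes up much of the neutrophil cytosol and is also made by monocytes. They lie close together on chromosome 3, *S100a8* (ENSMUSG00000056054.9) from 90668978 to 90670035 on the plus strand and *S100a9* (ENSMUSG00000056071.12) from 90692632 to 90695721 on the minus strand. Male WT livers held 1.09, 2.85, and 6.15 CPM of *S100a8* (lowest, median, and highest). Male SIRT6-tg livers held 0.60, 1.33, and 4.09 CPM. Most SIRT6-tg males lay low, 3 of them below every WT male and 6 below the WT median, but replicate 6 at 4.09 CPM exceeded all WT males other than replicate 6 of that group. The log2 fold change was −0.83 (SE 0.45, 95% interval −1.75 to 0.08) and was not called (edgeR adjusted p = 0.199). Without male SIRT6-tg replicate 6 it was −1.25 with an edgeR adjusted p of 0.0496, so this library decides on which side of the threshold the gene falls.

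For *S100a9* the lowest, median, and highest levels were 1.53, 2.73, and 6.45 CPM in male WT and 0.899, 1.54, and 4.50 CPM in male SIRT6-tg livers. The log2 fold change of −0.68 (SE 0.36, 95% interval −1.43 to 0.06) was not called either (edgeR adjusted p = 0.194). Scaled by library size alone it was called, with a log2 fold change of −1.0 (edgeR adjusted p = 0.0444). That scaling moved the median log2 fold change of all tested genes in males to −0.22, from 0.06 under TMM, and every male fold change moves with it.

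In females, *S100a8* ranged from 0.947 to 5.15 CPM in WT (median 1.77) and from 0.952 to 4.80 CPM in SIRT6-tg livers (median 1.45). Of the SIRT6-tg females, 6 lay below the WT median and replicate 1 stood alone at 4.80 CPM. *S100a9* ranged from 1.69 to 5.88 CPM (median 2.07) and from 1.56 to 4.80 CPM (median 2.44), so here the SIRT6-tg median was the higher while the fitted log2 fold change was −0.33. The log2 fold changes were −0.49 (SE 0.45) for *S100a8* and −0.33 (SE 0.36) for *S100a9*, with 95% intervals of −1.40 to 0.43 and −1.07 to 0.40. Neither was called. Without female SIRT6-tg replicate 1 they were −0.92 and −0.56, and without female WT replicate 2 they were −0.23 and −0.12, still not called. *S100a9* was also −0.17 without female WT replicate 4.

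The alarmin subunits kept a narrow ratio to each other, although each gene varied widely. Over the 28 libraries *S100a8* spanned a 10.3-fold range and *S100a9* a 7.17-fold range, while the ratio of their counts stayed between 0.50 and 1.11 (median 0.757). The same mouse was the highest of its group for both genes in each of the 4 groups, replicate 6 among the males of either genotype, replicate 2 in female WT, and replicate 1 in female SIRT6-tg. The genes were measured in the same libraries and share their depth and scaling. Of 2 genes for receptors of this alarmin, 1 was called in males, where 20.7% of all tested genes were called. *Tlr4*, which many liver cells carry, was lower in SIRT6-tg males with a log2 fold change of −0.91 (SE 0.24, edgeR adjusted p = 0.00589), and was not called in females at 0.06. *Ager*, the receptor RAGE, was not called in males at 0.08 (SE 0.35, edgeR adjusted p = 0.904) or in females at −1.03 (SE 0.39, edgeR unadjusted p = 0.0130 and adjusted p = 0.636).

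**Figure D2:**
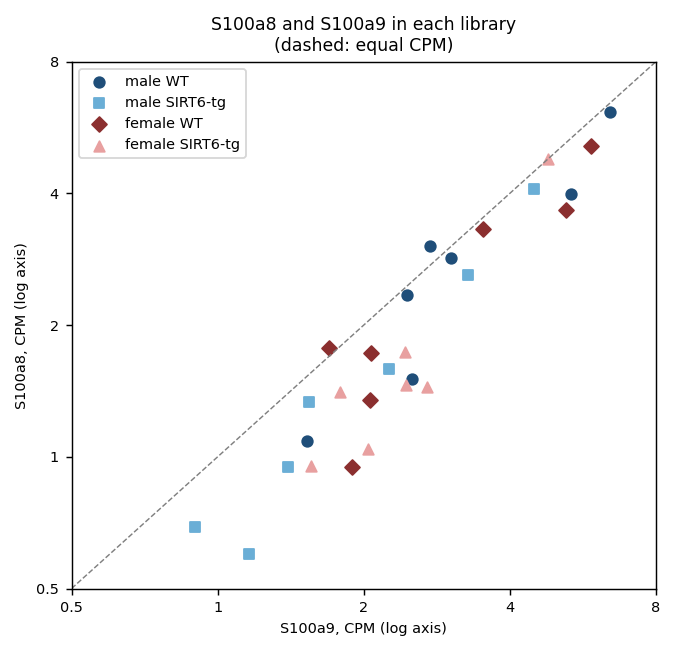
Each point is 1 liver library, with the level of *S100a9* on the horizontal and of *S100a8* on the vertical axis, both in TMM-scaled CPM on log axes, coloured by group, and the dashed line marking equal CPM. Most points lie under the line and a few just above it, over a 10.3-fold range of *S100a8*, and the 2 lowest belong to male SIRT6-tg mice.

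*Retnlg* encodes a resistin-like protein secreted by mature neutrophils. Its lowest, median, and highest levels were 0.147, 0.520, and 0.759 CPM in male WT and 0.0691, 0.123, and 0.949 CPM in male SIRT6-tg livers. Again most SIRT6-tg males were low, 4 of them below every WT male, and again replicate 6 was high, at 0.949 CPM above every WT male. The log2 fold change was −0.68 (SE 0.50, 95% interval −1.70 to 0.35), and it was −1.35 without that library, not called in either fit (edgeR adjusted p = 0.379 and 0.0564). In females the levels were 0.253, 0.613, and 1.19 CPM in WT and 0.152, 0.387, and 0.951 CPM in SIRT6-tg livers. The female ranges overlapped, with a log2 fold change of −0.61 (SE 0.47, 95% interval −1.56 to 0.35) that was not called. Male SIRT6-tg replicate 6 was the highest of its group for 5 of the 10 genes, *S100a8*, *S100a9*, *Retnlg*, *Csf3r*, and *Mmp8*.

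*Ly6g*, the antigen by which mouse neutrophils are usually recognised, had 9 counts in all, in 6 of the 28 libraries. There were 5 counts in male WT, 4 of them in a single liver, 0 in male SIRT6-tg, 3 in female WT, and 1 in female SIRT6-tg livers. A count of 0 over the 7 male SIRT6-tg libraries allows up to 3 counts, and the exact 95% interval for the ratio of SIRT6-tg to WT males ran from 0 to 1.33. At this depth no difference in *Ly6g* was detectable. This interval and those for the scarce granule genes cover counting error only.

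The metalloproteases differ in source, since *Mmp8*, the neutrophil collagenase, is nearly restricted to neutrophils while *Mmp9*, a gelatinase, is also made by macrophages. *Mmp8* had 51 counts over the 7 male WT and 23 over the 7 male SIRT6-tg libraries, and 40 and 21 in females. Levels ranged from 0.10 to 0.400 CPM in male WT (median 0.223), and from 0 to 0.289 CPM in male SIRT6-tg livers (median 0.138). In females they ranged from 0.123 to 0.307 CPM in WT (median 0.242) and from 0 to 0.310 CPM in SIRT6-tg livers (median 0.0762). In each sex 6 of 7 SIRT6-tg livers were below the WT median, yet the ranges overlapped. The log2 fold changes were −0.84 (SE 0.48, 95% interval −1.82 to 0.14) in males and −0.90 (SE 0.50, 95% interval −1.92 to 0.12) in females, and neither was called.

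*Mmp9* ranged from 0.825 to 2.0 CPM in male WT (median 1.17) and from 0.525 to 1.54 CPM in male SIRT6-tg livers (median 0.815). In females it ranged from 0.847 to 2.88 CPM (median 1.59) and from 0.762 to 1.82 CPM (median 1.08). In males 4 SIRT6-tg livers lay below all WT livers, and in each sex 6 of 7 lay below the WT median. The log2 fold changes, −0.48 (SE 0.27, 95% interval −1.03 to 0.07) and −0.46 (SE 0.26, 95% interval −0.99 to 0.08), were not called. *Timp1*, the secreted inhibitor of MMP9, had a larger change, from 0.353, 1.77, and 4.26 CPM (lowest, median, and highest) in male WT to 0.0346, 0.116, and 0.288 CPM in male SIRT6-tg livers. These groups did not overlap, and the log2 fold change was −3.50 (SE 0.54, edgeR adjusted p = 1.54e-05). In males 3 of 5 inhibitor genes were lower (*Timp1*, *Timp2*, and *Slpi*), beside 11% of all tested genes. In females, where 0.0278% of all genes were called, 1 was higher, *Serpinb1a*, an inhibitor of elastase and other neutrophil serine proteases. Its log2 fold change was 1.67 (SE 0.29, edgeR adjusted p = 0.0202).

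The specific granule genes lie near each other on chromosome 9, *Ngp* (ENSMUSG00000032484.8), a cathelin-like granule protein, from 110419747 to 110423012, *Camp*, the cathelicidin, from 109847379 to 109849617, and *Ltf*, the iron-binding lactotransferrin, from 111019271 to 111042767. Their counts were too few for more than coarse statements. Summed over the 7 libraries of a group, *Ngp* had 8 counts in male WT and 15 in male SIRT6-tg, against 38 and 29 in females. *Camp* had 12 in males of either genotype, and 28 in female WT against 7 in female SIRT6-tg. *Ltf* had 16 and 3 in males, and 34 and 21 in females. The female WT sum was the highest of the 4 groups for each of these genes, but a few mice gave much of it. Of the 38 *Ngp* counts, female WT replicate 2 gave 14 and replicate 4 gave 11. Of the 34 *Ltf* counts, replicate 1 gave 14 and replicate 2 gave 9. In females the SIRT6-tg median was above the WT median for *Ngp* (0.219 against 0.161 CPM) and *Ltf* (0.136 against 0.125 CPM). For *Camp* it was below (0.0364 against 0.0766 CPM). Within the males of either genotype the *Ngp* range was at most 0 to 0.272 CPM, and in female WT it was 0 to 0.538 CPM.

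None of the specific granule genes was called between genotypes. In males the log2 fold changes of *Ngp* and *Camp* were 1.08 (SE 0.89, 95% interval −0.73 to 2.89) and 0.30 (SE 0.85, 95% interval −1.44 to 2.05). *Ltf* had 5 of 7 male SIRT6-tg libraries at 0, and the ratio of WT to SIRT6-tg males from the summed counts was 4.36, with an exact 95% interval of 1.25 to 23.4. Its unadjusted p was 0.0450 in edgeR's test across all genes, and the adjusted p was 0.143. In females *Camp* gave a log2 fold change of −1.91 (SE 0.83, 95% interval −3.59 to −0.22, edgeR unadjusted p = 0.0280 and adjusted p = 0.792). Of the 28 *Camp* counts of female WT mice, replicate 1 gave 12 and replicate 2 gave 11. The female log2 fold changes of *Ngp* and *Ltf* were −0.39 (SE 0.66) and −0.69 (SE 0.62).

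Taking the members together, 1 of the 9 tested genes, *Csf3r*, was called lower in SIRT6-tg males, where 11% of all tested genes were called lower and 20.7% in either direction. Of the 9, 7 had a fitted log2 fold change below 0, and the median was −0.68, beside 0.06 over all tested genes. In females none of the 9 was called by edgeR or DESeq2, with 1 at an edgeR unadjusted p under 0.05 and 0.0278% of all genes called. All 9 were fitted below 0 in females, with a median of −0.49 beside 0.00257 over all genes. Without female WT replicate 2 the *Ngp* fit was above 0, at 0.0279. The 9 genes were measured in the same mice, so in either sex their signs are not independent of each other. The difference between the sexes was called for none of the 9 by edgeR, with *Csf3r* at an unadjusted p of 0.00318 and 5.05% of all genes called, and by DESeq2 it was called for *Csf3r*. The summed level of the 10 genes had a median of 15.1 CPM in male WT and 7.29 CPM in male SIRT6-tg livers, with ranges of 6.04 to 19.7 and 3.98 to 14.6 CPM. In females the medians were 11.2 CPM in WT and 9.25 CPM in SIRT6-tg livers, with ranges of 8.19 to 20.4 and 6.51 to 14.9 CPM.

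**Figure D3:**
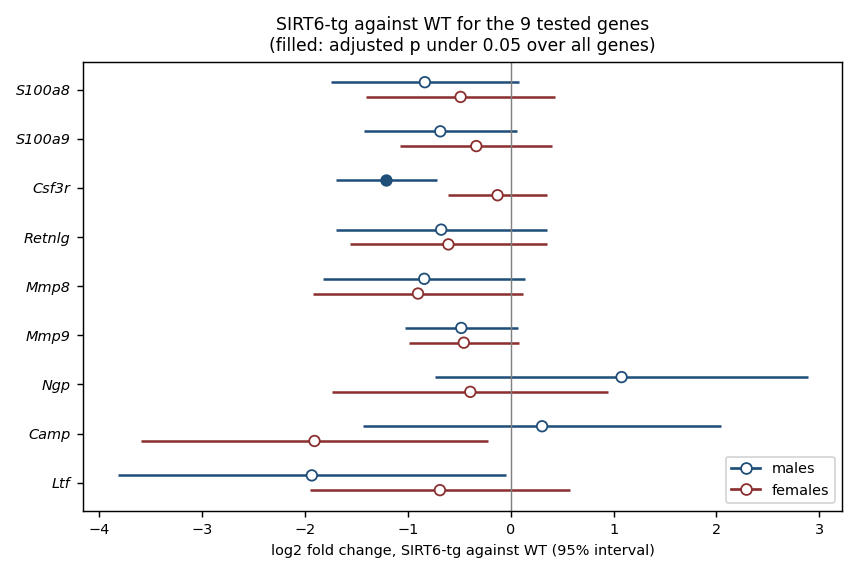
Points give the log2 fold change of SIRT6-tg against WT for the 9 tested genes on the horizontal axis, with males in blue and females in red, lines marking the 95% interval and filled points an adjusted p under 0.05 over all 21583 genes. *Csf3r* in males, at −1.21, is the one filled point, and the intervals of the specific granule genes at the bottom are wider than those of *Csf3r* and *Mmp9*.

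Male and female WT livers were compared to order the groups that carry no transgene. For *S100a8*, *S100a9*, *Retnlg*, *Csf3r*, *Mmp8*, and *Mmp9* the log2 difference of male from female WT lay between −0.52 (*Retnlg*) and 0.42 (*Csf3r*), and none was called. The specific granule genes all had fewer counts in males. *Ngp* was called lower in male WT livers, with a log2 difference of −2.33 (SE 0.79, 95% interval −3.93 to −0.72, edgeR adjusted p = 0.0490), from 8 counts against 38. It was the only one of 9 called, where 5.71% of all genes were called lower in male WT and 12.4% in either direction. *Camp* and *Ltf* gave −1.40 (SE 0.76) and −1.21 (SE 0.64) and were not called. The *Ngp* call stood at the threshold. It was lost in 4 of the other settings and with 19 of the 28 single libraries left out, among them 6 of the 7 male WT libraries (replicates 1, 2, 3, 4, 6, and 7) and female WT replicates 1, 2, 4, and 5. The adjusted p ranged from 0.0240 to 0.136 over these omissions, and was highest without female WT replicate 2. The WT libraries of each sex serve in this comparison and in that of the genotypes, so the results are not independent of each other.

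Other genes of the neutrophil program were read from lists chosen with earlier results of these data known, so the counts called per list are a description. Of the early granule genes, transcribed in promyelocytes, 4 of 7 were tested and none was called in either sex (median log2 fold change −0.74 in males and −0.62 in females). *Ctsg*, *Ms4a3*, and *Fcnb* did not reach the minimum count. *Cebpe*, the C/EBP factor needed for specific granules, was the most abundant of this list at 9.99 to 14.9 CPM in male WT, 12.6 to 21.3 CPM in male SIRT6-tg, 5.65 to 9.69 CPM in female WT, and 4.50 to 7.57 CPM in female SIRT6-tg livers. Its WT ranges did not overlap between the sexes, and it was higher in male WT with a log2 difference of 0.71 (SE 0.14, edgeR adjusted p = 0.000542). It did not follow the specific granule genes, which all had fewer counts in male WT. Over the 7 male WT libraries *Cebpe* had 2657 counts, beside 16 for *Mpo*, 18 for *Elane*, and 129 for *Prtn3* of the same list. Which cells of the liver held the *Cebpe* transcript was not tested.

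In the list of other neutrophil surface and granule genes, 8 of 12 were lower in SIRT6-tg males, beside 11% of all tested genes. The list median was −2.07 in males, and none was called in females, with a median of −0.20. *Lcn2*, a siderophore-binding protein of specific granules that hepatocytes also secrete in the acute phase, read 22.5, 78.2, and 116 CPM (lowest, median, and highest) in male WT and 2.96, 4.81, and 8.22 CPM in male SIRT6-tg livers. These groups did not overlap, and its log2 fold change was −3.75 (SE 0.61, edgeR adjusted p = 5.83e-05). *Fpr2*, a formyl peptide receptor also carried by monocytes and macrophages that shares 48 bases of exon with *Fpr3*, gave −1.57 (SE 0.27, edgeR adjusted p = 6.63e-05), and *Pglyrp1*, a peptidoglycan-binding granule protein, gave −2.04 (SE 0.38, edgeR adjusted p = 0.000192). *Chil3*, a chitinase-like protein of neutrophils and macrophages, gave −2.63 (SE 0.57, edgeR adjusted p = 0.000969). *Cxcr2*, the chemokine receptor typical of neutrophils, was not among those called, at −0.75 (SE 0.40, edgeR adjusted p = 0.195), with 0.177 to 0.966 CPM in male WT and 0.155 to 0.825 CPM in male SIRT6-tg livers.

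Of the genes for factors that recruit neutrophils, 3 of 7 were tested, and *Csf3*, *Csf2*, *Cxcl3*, and *Il17a* were below the minimum. *Cxcl2* was lower in SIRT6-tg males, from 0.300, 0.966, and 1.48 CPM (lowest, median, and highest) in WT to 0, 0.155, and 0.265 CPM, without overlap, and its log2 fold change was −2.65 (SE 0.44, edgeR adjusted p = 3.72e-05). *Cxcl5* was lower as well, at −2.36 (SE 0.64, edgeR adjusted p = 0.00765). These were 2 of the 3 tested genes, beside 11% of all tested genes called lower in males. *Cxcl1*, the most abundant of the ligands for CXCR2 here, gave −0.94 (SE 0.40, edgeR adjusted p = 0.0987). In females the 3 gave −0.83 to −1.04 and none was called, where 0.0278% of all tested genes were called.

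Most lists of genes that other leukocytes share with neutrophils, or that belong to them, were called nearly throughout in males. Over all tested genes 11% were called lower in males. All 6 subunits of the phagocyte NADPH oxidase, which neutrophils share with monocytes and macrophages, were lower in SIRT6-tg males (median −1.52), and so were 5 of 5 genes of all leukocytes (median −1.67). The monocyte list had 5 of 5 lower (median −2.24), the macrophage list 9 of 9 (median −1.20), the T cell list 5 of 5 (median −2.38), and the B cell list 3 of 4 (median −0.95). Of the genes of eosinophils, basophils, and mast cells, 1 of 6 tested was lower (median −0.91), not far from the share over all genes. None of these lists had a called gene in females. The summed monocyte level ranged from 9.19 to 22 CPM in male WT and from 1.83 to 5.53 CPM in male SIRT6-tg livers, without overlap, and the summed macrophage level from 415 to 1358 CPM and from 346 to 587 CPM. In female WT and SIRT6-tg livers the monocyte sums were 5.41 to 9.85 and 3.58 to 8.23 CPM, and the macrophage sums 460 to 936 and 349 to 859 CPM. *Csf3r*, *S100a8*, *S100a9*, and *Mmp9* are also transcribed in these cells, and the part of monocytes and macrophages in the male *Csf3r* difference was not tested.

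Genes of red blood cells were read for the blood left in the liver. In SIRT6-tg males 20.7% of all tested genes were called in either direction. Of the 7 red blood cell genes 0 were called lower and 1 was called higher there. This was *Alas2*, an enzyme of heme synthesis whose exons overlap genes on the other strand over 372 bases. The list median was 0.25, and the globin genes gave 0.20 to 0.28 (SE 0.45 to 0.51). *Alas2* was also the 1 gene of the list called between male and female WT, with a log2 difference of 2.18 (SE 0.13, edgeR adjusted p = 9.69e-14). Over all tested genes 12.4% were called in that comparison, in which the globin genes gave 0.10 to 0.34 (SE 0.45 to 0.51). The part of blood left in the liver in the male differences was not tested. The summed red blood cell level ranged from 202 to 504 CPM in male WT and from 186 to 733 CPM in male SIRT6-tg livers. In females it ranged from 112 to 676 and from 106 to 490 CPM. The sums include *Alas2*, with means of 71.3 and 95.6 CPM in male WT and SIRT6-tg livers. In female WT and SIRT6-tg livers its means were 15.7 and 13.5 CPM, so the sums do not compare blood between the sexes. None of 4 platelet genes was called in either sex (median −0.48 in males). Of 4 hepatocyte genes 2 were higher in SIRT6-tg males (median 0.38), where 20.7% of all tested genes were called in either direction. None was called in females.

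**Figure D4:**
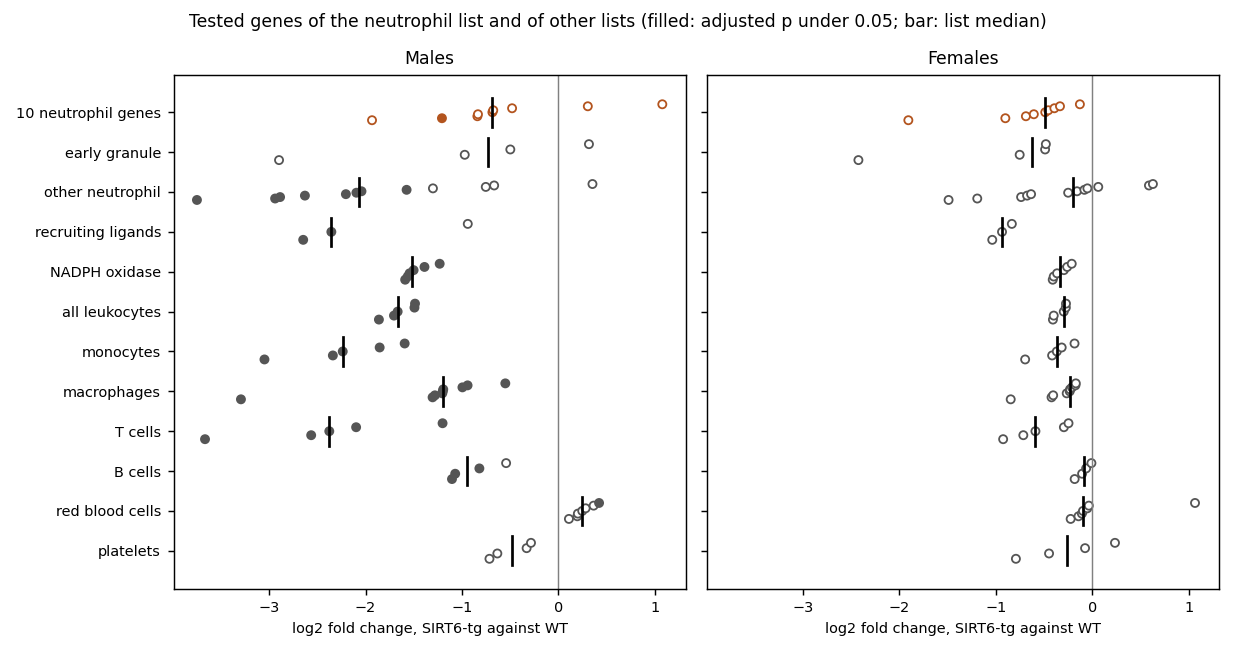
Each point is 1 tested gene, placed by its log2 fold change of SIRT6-tg against WT on the horizontal axis and by its list on the vertical axis, with males left and females right, filled points marking an adjusted p under 0.05 and bars the list medians. In males the list medians are −0.68 for the 10 neutrophil genes, −2.07 for the other neutrophil genes, −2.24 for monocytes, and −2.38 for T cells, differences between lists that were not tested, and in females no point of the lists shown is filled.

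The members were also compared from mouse to mouse, by correlation after each group's mean had been taken out. Over the 28 libraries, the Spearman correlation of a member with the mean of the other members was 0.76 for *S100a8*, 0.72 for *S100a9*, and 0.66 for *Retnlg*. For the remaining 6 tested genes it ranged from 0.30 (*Mmp9*) to 0.47 (*Mmp8*), with 0.39 for *Csf3r*.

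The genes most like the members in this sense, among 12330 others with a mean of at least 1 CPM, were *Slfn2* (Spearman correlation 0.80), *Rhoh* (0.77), *Fcgr1* (0.75), *Gm5150* (0.74), and *Cd44* (0.74), each over 28 libraries. All values share the libraries and their scaling. In SIRT6-tg males these genes gave log2 fold changes of −1.65, −1.55, −1.33, −1.20, and −1.42 in the same order, each called, and in females from −0.47 to −0.19, none called. *Slfn2*, *Rhoh*, *Fcgr1*, and *Cd44* are genes of leukocytes broadly, *Fcgr1* being the high-affinity IgG receptor of monocytes and macrophages, *Rhoh* a GTPase of blood cells, and *Cd44* a receptor for hyaluronan.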

How the data were processed

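Liver RNA of 28 mice was sequenced. According to the paper and the processing notes, the authors aligned single-end reads of NEBNext Ultra libraries to mm10 with STAR 2.5.0a, kept uniquely mapped reads, and ran HTSeq-count with the Gencode vM12 annotation. The strand setting is not given in the sources used here. The deposited values are raw counts as the authors made them, without normalization. Each library has 1 column, and 0 columns lacked a sample. Totals ranged from 18758863 to 35393069. No exon of a member overlaps another gene in Gencode vM21 (GRCm38), which gave symbols and coordinates.

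Genes with a mean of at least 0.5 after scaling with DESeq2 size factors were tested (21583) with edgeR 4.0.16 in R 4.3.3, using TMM, the robust quasi-likelihood F-test, 1 fit of all 28 libraries without covariates, and adjustment by Benjamini-Hochberg. CPM used TMM-scaled library sizes. SE is the log2 fold change divided by the root of F, and intervals (95%) use the degrees of freedom of the fit. Ratios of scarce counts have exact binomial intervals, and a count of 0 allows up to 3. The script was tested on simulated data.

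Members, lists, and rule were chosen with earlier results of these data known. Named were all members, in each other list at most 4 called genes with the lowest adjusted p in the comparison described (for the difference between the sexes this adds *Trem1* and *Trem3*), the other alarmin receptor (*Ager*, added after its values were seen), genes tied to a member (*Csf3*, *Cxcr2* and its ligands, *Tlr4*, *Timp1*, *Cebpe*), and the 5 genes most alike. Genes below the minimum were named after their values were seen. Of 101 list genes 100 were matched (*Tf* was not used here). No libraries within a group agreed within sampling noise. Alternatives were RLE, upper-quartile, and no scaling factors, the filterByExpr filter, a count above 0 in 1 library, no robust estimation, DESeq2 1.42.0 with and without replacement of outlying counts, each sex alone, a replicate block, and each library left out.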

Additional observations from a re-analysis of the deposited data

Results flagged for a closer look

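In 2 of 36 sets of 7 libraries (9 tested members in 4 groups), the highest library lay further from the rest, on the log2 CPM scale (prior count 2), than Dixon's test at the 95% level allows, where chance gives about 1.8. *S100a8* in female SIRT6-tg replicate 1 was 4.80 CPM with the next at 1.74 CPM, a gap of 0.634 of the group's range on that log2 scale. *Camp* in female SIRT6-tg replicate 2 had 4 counts and no other library of its group more than 1, a gap of 0.582 of the range on the same scale.

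For 10 of 32 tested genes in the lists tied to neutrophils (early granule, other neutrophil, ligand, receptor, inhibitor, and NADPH oxidase genes), the SIRT6-tg effect differed between males and females in edgeR's test of the difference itself (adjusted p under 0.05), where 5.05% of all genes were called. The same difference was called, each time with the lower value in males, for 4 of 5 monocyte, 3 of 5 pan-leukocyte, 3 of 5 T cell, and 2 of 9 macrophage genes. Sex and the *Sirt6* level of SIRT6-tg livers cannot be told apart in these differences. The lists were also chosen with earlier results of these data known. The male minus female effect on the log2 scale was 0.80 for *Cebpe*, whose effects were 0.32 in males and −0.48 in females, neither called. It was −1.42 for *Fpr2*, −3.52 for *Trem1*, −3.53 for *Trem3*, −2.69 for *Chil3*, and −0.67 for *Timp2*. Of the NADPH oxidase subunits it was −1.28 for *Cybb*, −1.02 for *Ncf1*, −1.27 for *Ncf4*, and −1.19 for *Rac2*. *Trem1* and *Trem3* rest on 4 and 5 counts in all 7 male SIRT6-tg libraries, and 408 bases of *Ncf1* exons overlap a gene on the other strand.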

How the results depend on the processing

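The male count of called members was 1 (*Csf3r*) in the main analysis and in 9 of 10 other settings, and 2 with library size alone, where *S100a9* was added. Without 1 library it was 1 to 2. *Csf3r* was lower in males in all 10 settings and 28 omissions, with log2 fold changes from −1.50 to −1.10. The female count was 0 throughout. The difference between the sexes was called for 0 members in the main analysis and for 1 (*Csf3r*) with RLE, upper-quartile, or library size scaling, filterByExpr, either DESeq2 run, and the replicate block, and for 0 to 1 without 1 library. Male against female WT went from 1 (*Ngp*) to 0 with RLE, library size alone, filterByExpr (which did not test *Ngp*), a count above 0, and no robust estimation, and was 0 to 1 without 1 library. With the replicate number as a block the *Csf3r* difference between the sexes was −1.04 (edgeR adjusted p = 0.0411), and no other call of a member changed. Same-numbered male WT and SIRT6-tg libraries had deviations correlated from −0.12 to 0.23, and 0 of 7 matched best with its own number. Female ones were correlated from −0.28 to 0.27, with 1 of 7 matched best. The labels give these samples no link beyond the number, and whether they shared a litter or cage was not tested.

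Signs that changed were of effects that were not called, of which *Ngp* in females was the largest in the main analysis, at −0.39. The *Mmp8* difference between the sexes changed sign to −0.0076 with upper-quartile and −0.25 with library size scaling. Without 1 library the ranges that crossed 0 were −0.12 to 0.54 for *Camp* in males and −0.61 to 0.0279 for *Ngp* in females. For the difference between the sexes they were −0.75 to 0.0758 for *S100a8*, −0.74 to 0.20 for *Retnlg*, −0.25 to 0.49 for *Mmp8*, and −0.24 to 0.12 for *Mmp9*. Between male and female WT they were −0.0411 to 0.51 for *S100a8*, −0.12 to 0.34 for *S100a9*, and −0.0128 to 0.25 for *Mmp8*. Library size alone gave 4084 genes lower and 210 higher in males, against 2377 and 2090 with TMM. The cause of these changes was not tested. Depth limits *Ly6g*, *Ngp*, *Camp*, *Ltf*, and *Mmp8*, with 9 to 135 counts in 28 libraries.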
